A study of Homo sapiens with 8 samples.

Results

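RNA of 10 enzymes that build purine and pyrimidine nucleotides de novo was examined in auxin-sensitive (parental) and auxin-resistant cells of a human leukemia line. The members are *PPAT*, *GART*, *PFAS*, *PAICS*, *ADSL*, *ATIC*, *IMPDH2*, *CAD*, *UMPS* and *CTPS1*, chosen by gene symbol, 10 of the 60754 genes and spike-in sequences in the expression table, and each symbol matched 1 entry. RNA-seq of 8 libraries was analyzed, 2 each of C17.2 parental, C17.2 resistant, C3.2 parental and C3.2 resistant cells. All were SEM cells, a B-cell acute lymphoblastic leukemia (B-ALL) line with a rearranged *KMT2A* gene, which carried a miniAID-mClover3 degron and fluorescent tag on both alleles of *CTCF* and expressed OsTIR1(F74G), the F-box protein that recognizes the tag once it has bound the auxin analog 5-Ph-IAA, together with Zeocin resistance from a lentiviral cassette under the MND promoter. Each clone was a single edited clone, so the 2 libraries of a group did not sample different clones. No drug was given to parental cells. Resistant cells were kept until day 36 in 1 μM 5-Ph-IAA with 100 μg/ml Zeocin and were then taken off both drugs before collection. As the study describes them, resistant cells of C17.2 carried a nonsense mutation in *CTCF* that removes the tag, and those of C3.2 carried a missense mutation in the tag. Off the drugs, C17.2 resistant cells held tagged CTCF, still sensitive to auxin, beside the truncated form. Gene-level expression values resolve neither mutation. The question put to the data was whether RNA of the nucleotide synthesis enzymes differed between resistant and parental cells within each clone, and whether the difference was unequal between the clones.

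Cells make purines stepwise on activated ribose (PRPP). PPAT commits PRPP to the pathway, and GART, PFAS, PAICS, ADSL and ATIC then complete the ring to give inosine monophosphate (IMP), with formyl groups taken from folate. IMPDH2 turns IMP toward guanine nucleotides. Pyrimidines are built as a free ring by CAD, joined to PRPP and decarboxylated to UMP by UMPS, and aminated to cytidine nucleotides by CTPS1. Proliferating leukemia cells rely on both pathways, and the transcription factor MYC is a known activator of many of these genes.

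The deposited values are normalized transcript abundances (TPM), which have an identical sum in all libraries, so sequencing depth and counting error are unknown. Libraries were scaled to one another by a trimmed mean of log2 ratios, with factors of 0.893 to 1.16, and values below are scaled TPM unless stated otherwise. Changes are log2 fold changes of scaled TPM + 1 from limma, fitted over 15614 genes that reached a TPM of 1 somewhere among the libraries, with p-values adjusted by the Benjamini-Hochberg method and a threshold of 0.05, and a 95% interval is a confidence interval of that change. All 10 members passed this filter, each in all 8 libraries. The labels do not say that libraries of a group came from separate cultures, so p-values measure only the spread between these samples, which may be technical. An exact two-sided permutation test of 2 libraries against 2 cannot go below 0.333. Sample titles of each clone begin with numbers from a separate range, whose meaning the labels do not give, so level differences between clones and between these ranges cannot be told apart. RNA of the tagged gene, *CTCF*, was 33.7 and 34.1 in C17.2 parental, 45.5 and 47.3 in C17.2 resistant, 36.0 and 35.0 in C3.2 parental and 45.3 and 44.8 in C3.2 resistant libraries, higher in both clones (adjusted p = 0.000795 and 0.0068). Of 9 B-lineage leukemia markers, 8 were tested. Their summed level was lower in resistant cells, at 673 to 698 against 845 in C17.2 and 758 to 759 against 918 to 948 in C3.2. Of 8, 4 fell in each clone and 1 rose in C3.2. That is 50% of them in C17.2 and 62.5% in C3.2, beside 27.3% and 11.4% of all tested genes. Of 5 T cell markers only *TRAC* was tested, and the list summed to 34.1 to 34.5 in C17.2 resistant, 45.5 to 45.6 in C3.2 resistant and 45.8 to 53.5 in parental libraries. Fibroblast markers, 3 of 5 of which were listed at 0 throughout, summed to 9.09 to 16.4. Erythroid markers summed to at most 0.631 and myeloid markers to at most 4.35 in any library. Fewer cells with RNA of a marker and less of that RNA per cell cannot be told apart in these bulk samples of clonal SEM cells. The part of the marker shift in the results below was not tested.

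Resistant cells showed small changes in a few of the 10 enzymes, and after trimmed mean scaling no enzyme was called in both clones. Other scalings did call some in both, namely *CAD* on TPM as deposited (adjusted p = 0.00713 and 0.0244 in C17.2 and C3.2) and both *CAD* (0.0197 and 0.0134) and *CTPS1* (0.00146 and 0.0333) with protein-coding genes alone setting the scale. In C17.2, the pyrimidine enzymes *UMPS* and *CTPS1* rose and the guanine branch enzyme *IMPDH2* fell, with 7 members short of the threshold. These were 3 of 10 members in a comparison that called 27.3% of all tested genes, 13.4% higher and 13.9% lower. In C3.2, *CAD* rose and *PAICS* fell, 2 of 10 members beside 11.4% of all tested genes (4.46% higher and 6.9% lower). The clones' changes differed for *UMPS*, 1 of 10 members beside 9.9% of all tested genes (4.91% with the higher and 4.99% with the lower change in C17.2). In each comparison, the number of members called was within 1 gene of what the share of all genes would give. The median log2 fold change of the members was 0.07 in C17.2 and -0.0055 in C3.2, where the median of all tested genes was 0 in both. On this scale of scaled TPM + 1, the widest change was 0.49, for *UMPS* in C17.2, and it reached 0.65 on TPM as deposited.

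**Figure D1:**
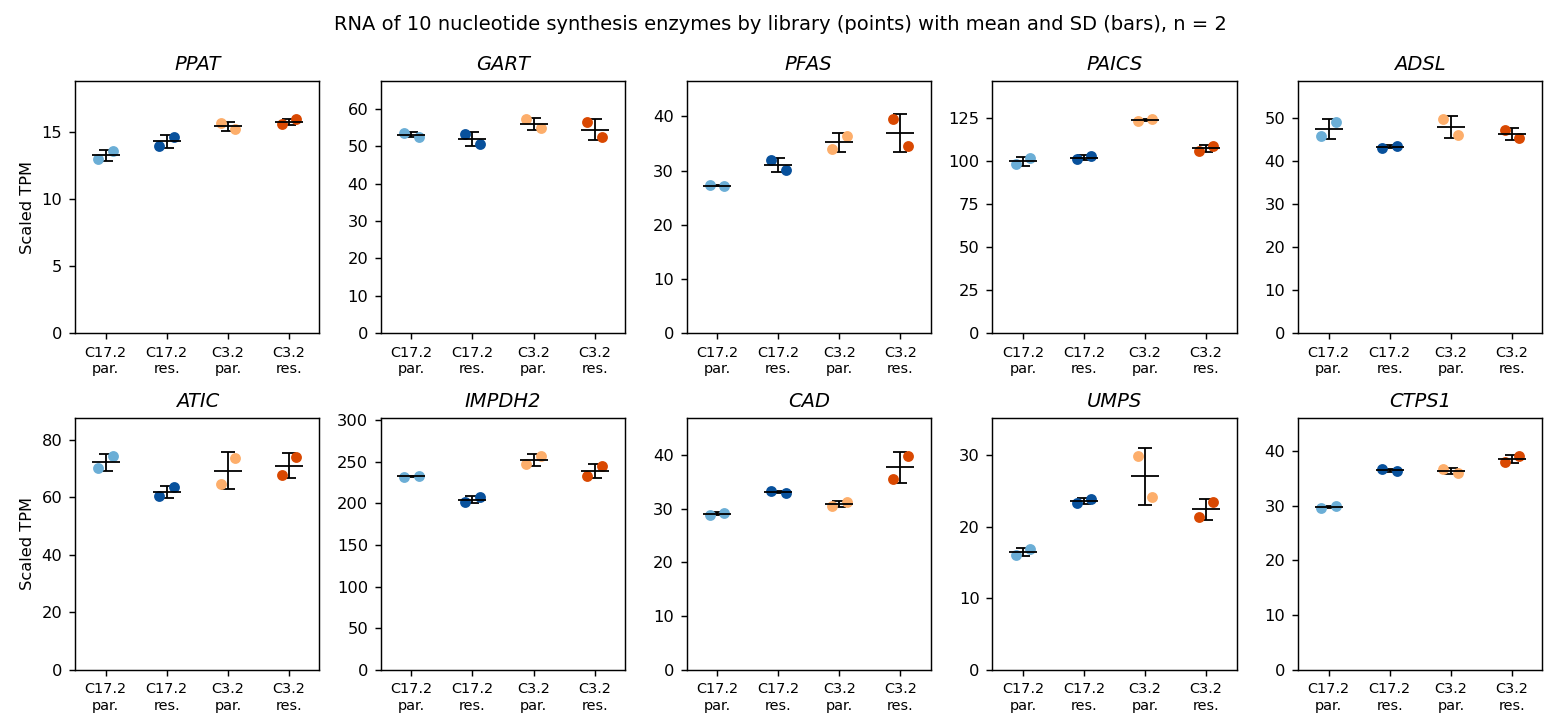
Scaled TPM (vertical axis, from 0) of the 10 enzymes in the 8 libraries, by clone and state (par., parental; res., resistant). Points are libraries, and bars give the mean and SD of 2 libraries. *UMPS* lies at 16.02 and 16.86 in C17.2 parental cells and between 21.4 and 29.9 in the other 6 libraries, whereas *GART* varies only between 50.6 and 57.2.

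The members spanned a wide range of levels, which can be compared between genes since TPM is per transcript length. *IMPDH2* was highest, with a mean of 232 over the 8 libraries, above 98.0% of tested protein-coding genes. *PAICS* followed with 108, *ATIC* with 68.7, *GART* with 53.9 and *ADSL* with 46.2. *CTPS1* (35.3), *CAD* (32.7) and *PFAS* (32.6) were close to one another, *UMPS* was at 22.4, and *PPAT*, the committed step, was lowest at 14.7, above 55.6% of protein-coding genes. From *IMPDH2* to *CTPS1*, the lowest library of each gene lay above the highest library of the next. The ranges of *CTPS1* and *CAD* overlapped, with *CTPS1* higher in 7 of 8 libraries, and so did those of *CAD* and *PFAS*, with *CAD* higher in 5 of 8. The range of *PFAS* also reached that of *UMPS*, although *PFAS* was higher within each of the 8 libraries. Between the highest and the lowest library, levels differed least for *GART* (1.13-fold) and most for *UMPS* (1.86-fold). Summed over the 6 enzymes that lead to IMP, the level was 313 ± 7.50 in C17.2 parental and 304 ± 1.11 in resistant cells, and 347 ± 4.28 in C3.2 parental and 332 ± 1.10 in resistant cells (SD, n = 2 each). The 3 pyrimidine enzymes together were at 75.3 ± 1.05 in C17.2 parental cells, and at 93.2 ± 0.132, 94.2 ± 4.02 and 98.7 ± 5.16 in C17.2 resistant, C3.2 parental and C3.2 resistant cells (SD, n = 2 each).

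Promoter sequence was available from RefSeq (GRCh38.p14) for 8 of the 10 members, as windows of 300 bases around the start that lay nearest to the gene start of the annotation. Of these bases, 250 lie before the start, so motifs farther after it are missed. The start used lies 1671 bases from the annotated gene start for *PFAS*, 599 for *GART* and 396 for *CTPS1*. Short motifs were searched on both strands in these windows and in all 35116 windows of the same length, which were not reduced to 1 per gene. The E-box CACGTG, a motif that MYC can bind, was found in 3 of 8 member windows (*ATIC*, *PPAT* and *PAICS*) and in 7.26% of all windows. The windows of *PPAT* and *PAICS* overlap and hold the same E-box, so these 3 are not separate matches. The NRF1 core (GCGC, any 2 bases and GCGC again) was found for *CTPS1* alone, against 8.32% of all windows. The ETS motif CCGGAAG and the C/EBP-ATF core TGATGNAA were in none of the 8 member windows, against 10.3% and 3.62% of all windows. A cyclic AMP response element, TGACGTCA, was searched after the sequences had been read and was found for *UMPS* alone, against 1.85% of all windows. A match is a description of letters and not a site of binding. The upstream sequences of *UMPS* and *CTPS1* are shown because these were the members that rose in C17.2, and that of *ATIC* because it holds an E-box. They end at the base before the start, and the motif is in capitals.
UMPS, chr3:124730202-124730451, forward strand: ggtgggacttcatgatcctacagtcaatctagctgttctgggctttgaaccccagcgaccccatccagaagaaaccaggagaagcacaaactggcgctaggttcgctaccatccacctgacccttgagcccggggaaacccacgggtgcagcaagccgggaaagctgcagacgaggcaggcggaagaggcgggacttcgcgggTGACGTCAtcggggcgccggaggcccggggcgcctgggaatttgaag
CTPS1, chr1:40979446-40979695, forward strand: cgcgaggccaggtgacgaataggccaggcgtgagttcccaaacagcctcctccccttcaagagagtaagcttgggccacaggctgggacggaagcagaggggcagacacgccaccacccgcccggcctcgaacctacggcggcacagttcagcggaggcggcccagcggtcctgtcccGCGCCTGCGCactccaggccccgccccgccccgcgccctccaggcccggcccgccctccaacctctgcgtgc
ATIC, chr2:215311809-215312058, forward strand: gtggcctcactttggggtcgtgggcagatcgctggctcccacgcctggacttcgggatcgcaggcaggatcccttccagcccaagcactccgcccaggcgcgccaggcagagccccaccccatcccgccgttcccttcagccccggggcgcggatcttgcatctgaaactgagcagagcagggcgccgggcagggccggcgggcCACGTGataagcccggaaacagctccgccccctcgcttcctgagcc
In these, the response element of *UMPS* begins 47 bases, the NRF1 core of *CTPS1* 72 bases and the E-box of *ATIC* 46 bases before the start. *ATIC* has another E-box after its start.

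*PPAT* and *PAICS*, which act at the first and at middle steps of the purine pathway, are neighbors on chromosome 4 that are transcribed away from each other, with starts 137 bases apart. They share 1 E-box, which begins on the forward strand at position 56435792, 40 bases after the start of *PAICS*, and, read on the strand of *PPAT*, begins 182 bases before the start of that gene. The sequence that lies between the starts is shown because both genes are transcribed outward from its ends. Whether their changes differed from each other was not tested.
PPAT-PAICS, chr4:56435616-56435751, forward strand: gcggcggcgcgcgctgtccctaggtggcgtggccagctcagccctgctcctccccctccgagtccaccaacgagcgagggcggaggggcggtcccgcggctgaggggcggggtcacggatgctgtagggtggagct

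*PPAT* (ENSG00000128059.8, chromosome 4, 56393362 to 56435615, reverse strand) encodes the amidotransferase of the committed step. Its level was 12.9 and 13.5 in C17.2 parental libraries, 13.9 and 14.6 in C17.2 resistant libraries, 15.7 and 15.2 in C3.2 parental libraries, and 15.6 and 15.9 in C3.2 resistant libraries. Both resistant libraries lay above both parental ones in C17.2, and the groups overlapped in C3.2. The log2 fold change of 0.10 in C17.2 (95% interval -0.02 to 0.22, adjusted p = 0.194) did not pass the threshold, nor did that of 0.03 in C3.2 (adjusted p = 0.772). On TPM as deposited, the change in C17.2 was 0.25 and passed it (adjusted p = 0.0195).

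*PAICS* (ENSG00000128050.8, chromosome 4, 56435741 to 56464578, forward strand), which encodes a bifunctional carboxylase and ligase in the middle of the pathway, fell in C3.2 resistant cells. Its level was 98.0 and 102 in C17.2 parental, 101 and 103 in C17.2 resistant, 123 and 124 in C3.2 parental, and 106 and 109 in C3.2 resistant libraries. The C3.2 parental libraries stood above the other 6, which lay close together. In C3.2 the level fell from 124 ± 0.651 to 107 ± 1.91 (SD, n = 2 each), a log2 fold change of -0.20 (95% interval -0.30 to -0.11, adjusted p = 0.0255). In C17.2 the groups overlapped, with a change of 0.03 (adjusted p = 0.629). The clones' changes differed by 0.23, just short of the threshold (adjusted p = 0.0506). The fall was called under 3 of 8 processing alternatives (adjusted p up to 0.196), and without C3.2 parental replicate 1 or 2 or C3.2 resistant replicate 1 or 2 it was not called (adjusted p = 0.107, 0.106, 0.0515 and 0.0513).

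*GART* (ENSG00000159131.17, chromosome 21, 33503931 to 33543491, reverse strand) encodes a trifunctional enzyme that uses formyl-tetrahydrofolate. It was the steadiest member, at 53.6 and 52.6 in C17.2 parental, 53.3 and 50.6 in C17.2 resistant, 57.2 and 54.8 in C3.2 parental, and 56.4 and 52.5 in C3.2 resistant libraries. The groups overlapped in both clones. The log2 fold changes of -0.03 (95% interval -0.16 to 0.10, adjusted p = 0.701) and -0.04 (-0.17 to 0.09, adjusted p = 0.684) did not pass the threshold, and their sign turned on TPM as deposited (0.13 and 0.03). *GART* overlaps *SON* on the opposite strand over 454 bases, and whether reads were counted by strand is not given in the sources used here.

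*PFAS* (ENSG00000178921.14, chromosome 17, 8247618 to 8270491, forward strand) encodes the next, glutamine-using enzyme. It was at 27.3 and 27.1 in C17.2 parental, 32.004 and 30.19 in C17.2 resistant, 33.9 and 36.4 in C3.2 parental, and 39.4 and 34.4 in C3.2 resistant libraries. The groups did not overlap in C17.2, where resistant libraries were higher, and overlapped in C3.2. The log2 fold change of 0.19 in C17.2 (95% interval 0.01 to 0.37) missed the threshold after adjustment (adjusted p = 0.115), and passed it both without scaling and when TPM were rescaled over protein-coding genes (lower adjusted p = 0.0313). In C3.2 the change was 0.07 (adjusted p = 0.612). It shares 441 bases with *CTC1*, which lies on the opposite strand.

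*ADSL* (ENSG00000239900.12, chromosome 22, 40346461 to 40390463, forward strand) encodes adenylosuccinate lyase, which acts both before IMP and on the way from IMP to adenine nucleotides. Its level was 45.7 and 49.1 in C17.2 parental, 43.0 and 43.5 in C17.2 resistant, 49.5 and 46.0 in C3.2 parental, and 47.2 and 45.3 in C3.2 resistant libraries. Resistant libraries lay below parental ones in C17.2 on scaled TPM and overlapped them on TPM as deposited. Neither the log2 fold change of -0.13 in C17.2 (adjusted p = 0.147) nor that of -0.05 in C3.2 (adjusted p = 0.658) passed the threshold, and both turned positive on TPM as deposited (0.03 and 0.02). The gene shares 19873 bases of the same strand with *SGSM3* (27.5 to 49.3), so reads could be split between them.

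*ATIC* (ENSG00000138363.15, chromosome 2, 215311956 to 215349773, forward strand) encodes the enzyme that adds the last carbon and closes the ring to IMP. It was at 70.1 and 74.4 in C17.2 parental, 60.6 and 63.5 in C17.2 resistant, 64.8 and 73.9 in C3.2 parental, and 68.0 and 74.2 in C3.2 resistant libraries. Resistant libraries were below parental ones in C17.2, and the groups overlapped in C3.2. The log2 fold change in C17.2 was -0.22 (95% interval -0.40 to -0.03, adjusted p = 0.0875), short of the threshold, and moved to -0.06 on TPM as deposited. In C3.2 it was 0.04 (adjusted p = 0.811). 

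*IMPDH2* (ENSG00000178035.12, chromosome 3, 49024325 to 49029447, reverse strand), the rate-limiting enzyme of guanine nucleotide synthesis, fell in C17.2 resistant cells on scaled TPM. Its level was 232 and 233 in C17.2 parental, 201 and 207 in C17.2 resistant, 247 and 257 in C3.2 parental, and 233 and 245 in C3.2 resistant libraries. Resistant libraries lay below parental ones in both clones. In C17.2 the mean went from 232 ± 0.944 to 204 ± 4.13 (SD, n = 2 each), a log2 fold change of -0.18 (95% interval -0.29 to -0.08, adjusted p = 0.0268). In C3.2 the change was -0.08 (adjusted p = 0.327), with a sign that turned on TPM rescaled over protein-coding genes and under quantile normalization (0.03 and 0.09), and the clones' changes did not differ past the threshold (adjusted p = 0.338). The fall in C17.2 depended on scaling, since on TPM as deposited the libraries were 243 and 230 in parental and 226 and 240 in resistant cells, which overlap (log2 fold change -0.02, adjusted p = 0.809). It was called under 3 of 8 processing alternatives, and was not called without C17.2 parental replicate 1 or 2 or C17.2 resistant replicate 1 or 2 (adjusted p = 0.0936, 0.102, 0.0958 and 0.0623). *IMPDH1*, the paralog of the same activity, was at 16.6 and 14.96 in C17.2 parental, 18.6 and 17.5 in C17.2 resistant, 23.3 and 24.1 in C3.2 parental, and 23.1 and 23.7 in C3.2 resistant libraries. It lay far below *IMPDH2* in every library and was called in neither clone (0.18, adjusted p = 0.0763, and -0.02, adjusted p = 0.907).

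**Figure D2:**
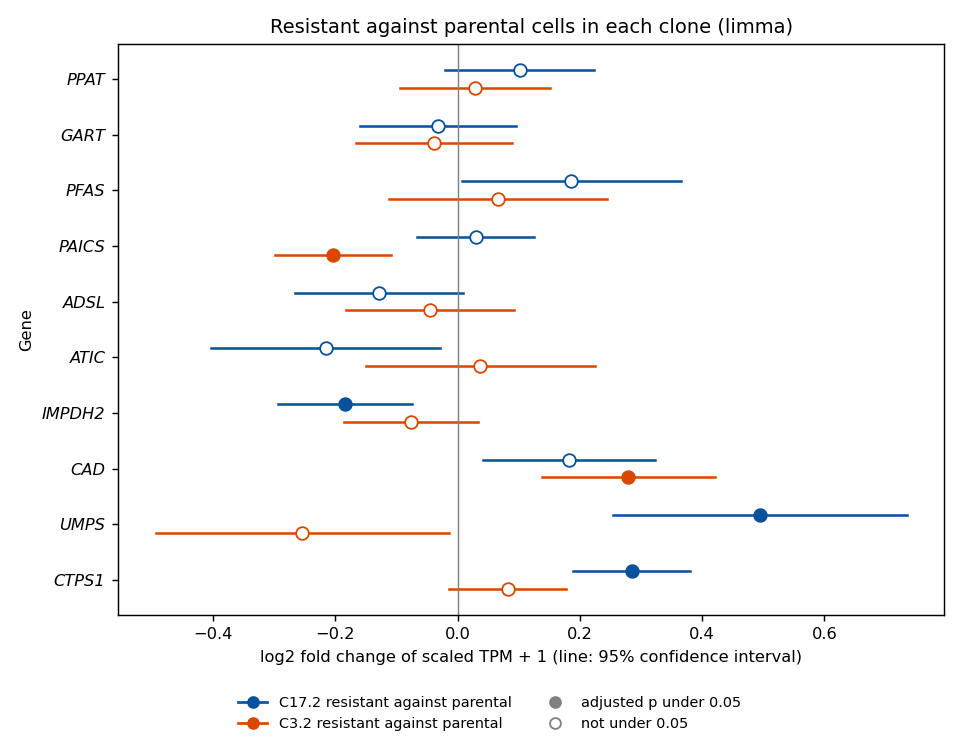
Log2 fold change of scaled TPM + 1 (horizontal axis) of resistant against parental cells for each enzyme (vertical axis), in C17.2 (blue) and C3.2 (orange). Lines are 95% confidence intervals from limma, and filled points have an adjusted p under 0.05. *UMPS* lies at 0.49 in C17.2 and at -0.25 in C3.2, the widest gap of the 10.

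*CAD* (ENSG00000084774.14, chromosome 2, 27217369 to 27243943, forward strand), the trifunctional enzyme of the first pyrimidine steps, rose in C3.2 resistant cells. It was at 28.9 and 29.3 in C17.2 parental, 33.3 and 33.0 in C17.2 resistant, 30.5 and 31.2 in C3.2 parental, and 35.6 and 39.8 in C3.2 resistant libraries. Resistant libraries were above parental ones in both clones. In C3.2 the level rose from 30.9 ± 0.538 to 37.7 ± 2.95 (SD, n = 2 each), or 1.22-fold, with a log2 fold change of 0.28 (95% interval 0.14 to 0.42, adjusted p = 0.0315). In C17.2 it was 1.14-fold higher, with a log2 fold change of 0.18 (95% interval 0.04 to 0.32) that missed the threshold (adjusted p = 0.0636), while the gap between clones, -0.10 (95% interval -0.30 to 0.10), was not past it either (adjusted p = 0.50). The call in C3.2 held under 5 of 8 processing alternatives. With 1 library left out, it held only without C3.2 resistant replicate 1 (adjusted p = 0.0133). It was lost without C3.2 parental replicate 1 or 2 (0.155 and 0.118), C3.2 resistant replicate 2 (0.0689), C17.2 parental replicate 1 or 2 (both adjusted p = 0.0729) or C17.2 resistant replicate 1 or 2 (0.0652 and 0.0653). The change in C17.2 passed the threshold without C3.2 resistant replicate 1 or 2 (adjusted p = 0.0181 and 0.0184).

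*UMPS* (ENSG00000114491.14, chromosome 3, 124730433 to 124749273, forward strand), which encodes the bifunctional UMP synthase, rose in C17.2 resistant cells and showed the widest difference between clones of the 10 members. Its level was 16.02 and 16.86 in C17.2 parental, 23.3 and 23.8 in C17.2 resistant, 29.9 and 24.2 in C3.2 parental, and 21.4 and 23.4 in C3.2 resistant libraries. C17.2 parental cells were the low group, resistant cells of the clones lay side by side, and C3.2 parental cells were higher with the widest spread of the 4 groups. In C17.2 the mean rose 1.43-fold, from 16.4 ± 0.593 to 23.6 ± 0.385 (SD, n = 2 each), a log2 fold change of 0.49 (95% interval 0.25 to 0.73, adjusted p = 0.0132). In C3.2 the mean was 27.0 ± 4.00 in parental and 22.4 ± 1.46 in resistant cells (SD, n = 2 each), a log2 fold change of -0.25 (95% interval -0.49 to -0.01) that was not past the threshold (adjusted p = 0.161). The changes in the clones differed by 0.75 (95% interval 0.41 to 1.09, adjusted p = 0.0248, limma interaction test). The rise in C17.2 was called under all 8 processing alternatives, with log2 fold changes of 0.49 to 0.65. It kept its size but lost the call without C17.2 parental replicate 1 or 2 or C17.2 resistant replicate 1 or 2 (0.46, 0.53, 0.51 and 0.48, adjusted p = 0.0924, 0.0666, 0.0679 and 0.0839). The gap between clones was called under 6 of 7 processing alternatives (adjusted p = 0.0507 with no filter on low values). It ranged from 0.60 to 0.89 with 1 library left out, and lost the call without C17.2 parental replicate 1 or 2 (adjusted p = 0.109 and 0.0905), C17.2 resistant replicate 1 or 2 (0.0851 and 0.10) or C3.2 resistant replicate 1 (0.0563). *DHODH*, which acts between CAD and UMPS, was at 4.13 to 6.87 in the 8 libraries and was called in neither clone (0.25, adjusted p = 0.393, and -0.30, adjusted p = 0.381).

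*CTPS1* (ENSG00000171793.16, chromosome 1, 40979300 to 41012565, forward strand), the CTP synthase that proliferating lymphocytes depend on, rose in C17.2 resistant cells and was the member whose call was steadiest. It was at 29.6 and 29.9 in C17.2 parental, 36.7 and 36.3 in C17.2 resistant, 36.7 and 36.0 in C3.2 parental, and 38.0 and 39.1 in C3.2 resistant libraries. C17.2 parental cells were low and the other 6 libraries lay between 36.0 and 39.1. In C17.2 the mean rose 1.23-fold, from 29.8 ± 0.192 to 36.5 ± 0.282 (SD, n = 2 each), a log2 fold change of 0.28 (95% interval 0.19 to 0.38, adjusted p = 0.00344). This was called under all 8 processing alternatives (adjusted p up to 0.015) and without any 1 of the 8 libraries (adjusted p up to 0.0234). In C3.2 the resistant libraries were also above the parental ones, by a log2 value of 0.08 (95% interval -0.01 to 0.18, adjusted p = 0.24), while the gap between clones of 0.20 (95% interval 0.07 to 0.34) missed the threshold (adjusted p = 0.0738). The paralog *CTPS2* is listed at 0 in all 8 libraries and was not tested.

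Counted by libraries alone, resistant libraries lay above parental ones for 5 of 10 members in C17.2 (*PPAT*, *PFAS*, *CAD*, *UMPS* and *CTPS1*), beside 33.3% of all tested genes, and below them for 3 (*ADSL*, *ATIC* and *IMPDH2*), beside 32.7%. In C3.2 they lay above for 2 (*CAD* and *CTPS1*), beside 27.8%, and below for 3 (*PAICS*, *IMPDH2* and *UMPS*), beside 28.1%. The pyrimidine enzymes had a higher mean in resistant cells in 5 of their 6 comparisons, the exception being *UMPS* in C3.2. Only *UMPS* and *CTPS1* in C17.2 and *CAD* in C3.2 were called, and the median change of all tested genes was 0 in both clones. *DHODH*, a further pyrimidine enzyme, had values of 0.25 in C17.2 and -0.30 in C3.2, called in neither. Scaling moved the directions of the members. On TPM as deposited, 6 members were called in C17.2, each higher (*PPAT*, *PFAS*, *PAICS*, *CAD*, *UMPS* and *CTPS1*), while 75.1% of all called genes were higher, against 49.1% after trimmed mean scaling, and the median of all tested genes moved to 0.13. On TPM rescaled over protein-coding genes, 5 members were called, each higher. Under quantile normalization *UMPS* and *CTPS1* remained called higher and *IMPDH2* was not called. In C3.2, *CAD* was called higher under each of these 3 scalings and *PAICS* under none of them, *CTPS1* was also called on TPM rescaled over protein-coding genes, and 57.8%, 70.2% and 50.7% of all called genes were higher on deposited, protein-coding and quantile scaling, against 39.3% after trimmed mean scaling.

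**Figure D3:**
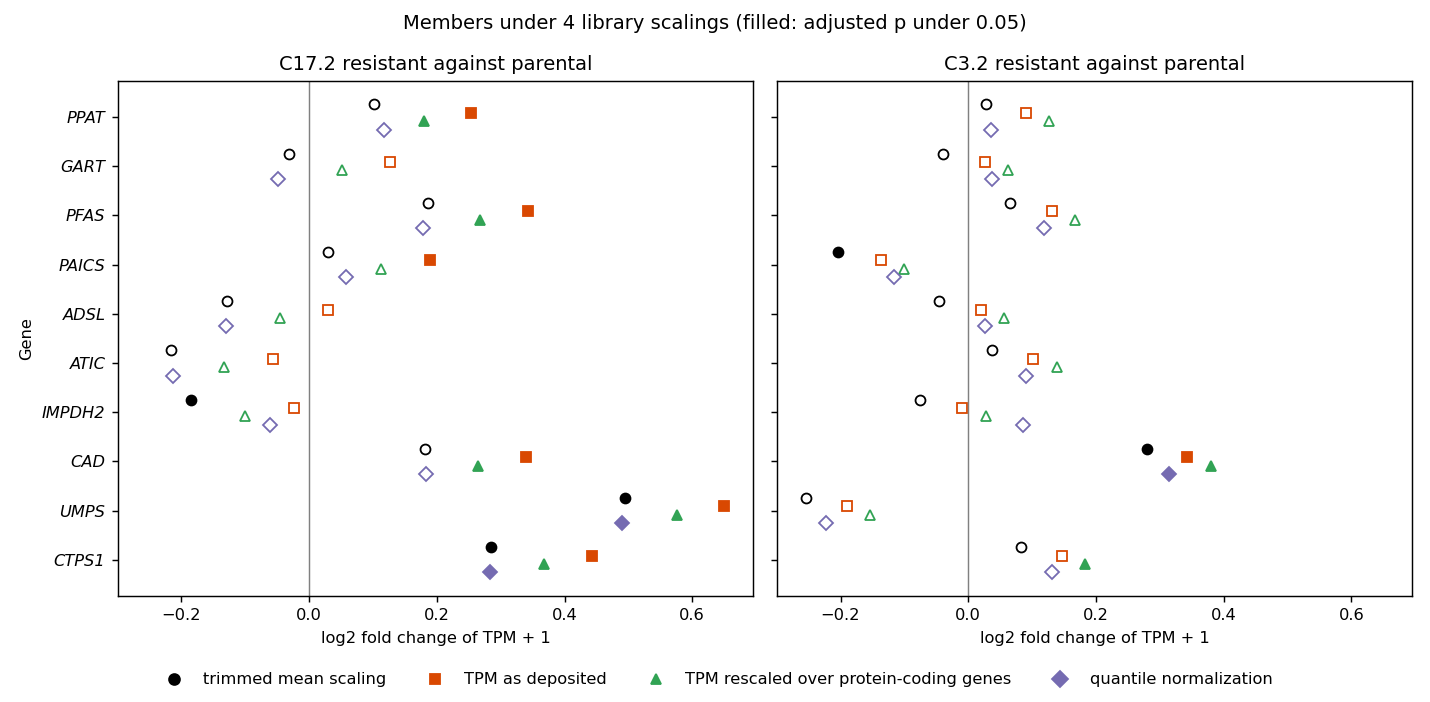
Log2 fold change of TPM + 1 (horizontal axis) of each enzyme (vertical axis) under 4 ways of scaling the libraries, in C17.2 (left) and C3.2 (right). Filled symbols have an adjusted p under 0.05. *UMPS* and *CTPS1* in C17.2 and *CAD* in C3.2 are filled under all 4, whereas *GART* and *ADSL* change sign.

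Averaged over the members, levels were lower in the libraries of C17.2 than in those of C3.2, but members did not share this evenly. Parental means in C17.2 and C3.2 were 16.4 and 27.0 for *UMPS*, 47.4 and 47.8 for *ADSL*, and 72.2 and 69.3 for *ATIC*. Only *ATIC* had the higher parental mean in C17.2. With each gene centered on its own mean, the members' average ran from -0.14 and -0.10 (log2 units) in C17.2 parental libraries, through -0.05 and -0.04 in C17.2 resistant libraries, to values of 0.06 to 0.09 in the 4 C3.2 libraries. *PPAT* lay nearest to this mean pattern, with a root mean square distance of 0.0251 in log2 units, and *UMPS* farthest, with 0.20. Each member is itself part of that mean. Among 6372 other protein-coding genes with a mean TPM of at least 10, the nearest were *DBF4* (0.0208), *HNRNPL* (0.029), *FAM120A* (0.0291), *DNAJA2* (0.0302) and *DNAJB14* (0.0302). The median gene was at 0.153, nearer than *UMPS*.

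The other genes of nucleotide metabolism were taken from lists of 84 genes, of which 67 were tested. In C17.2, 10 were higher and 12 lower, which is 32.8% of them beside 27.3% of all tested genes, with a median log2 fold change of -0.07. In C3.2, 1 was higher and 10 lower, or 16.4% beside 11.4% of all tested genes, with a median of -0.02. Of 5 tested genes that supply the one-carbon units GART and ATIC consume, 3 fell in both clones, namely the mitochondrial enzymes *SHMT2*, *MTHFD2* and *MTHFD1L*, and the cytosolic enzymes *SHMT1* and *MTHFD1* were not called in either. That is 60% of the 5 in each clone, beside 27.3% of all tested genes in C17.2 and 11.4% in C3.2. *MTHFD2* was at 198 and 206 in C17.2 parental, 39.8 and 39.6 in C17.2 resistant, 94.8 and 93.4 in C3.2 parental, and 55.6 and 58.0 in C3.2 resistant libraries. C17.2 parental libraries were the highest and C17.2 resistant libraries the lowest, and groups did not overlap in either clone (log2 fold changes -2.32, adjusted p = 6.26e-06, and -0.72, adjusted p = 0.000541). *SHMT2* was at 164 and 160, then 54.2 and 54.8, in C17.2 parental and resistant libraries, and at 75.0 and 78.7, then 55.0 and 57.7, in those of C3.2 (-1.55, adjusted p = 1.31e-05, and -0.44, adjusted p = 0.00383). *MTHFD1L* was at 28.2 and 28.8, then 8.52 and 8.85, in C17.2, and at 20.4 and 19.8, then 15.3 and 13.7, in C3.2 (-1.61, adjusted p = 3.16e-05, and -0.45, adjusted p = 0.00874). For all 3 genes the fall was larger in C17.2, by the interaction test (adjusted p = 0.000192, 0.000632 and 0.00143). Fitted on the libraries of C3.2 alone, *SHMT2* and *MTHFD1L* were not called there (adjusted p = 0.0702 and 0.0962).

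**Figure D4:**
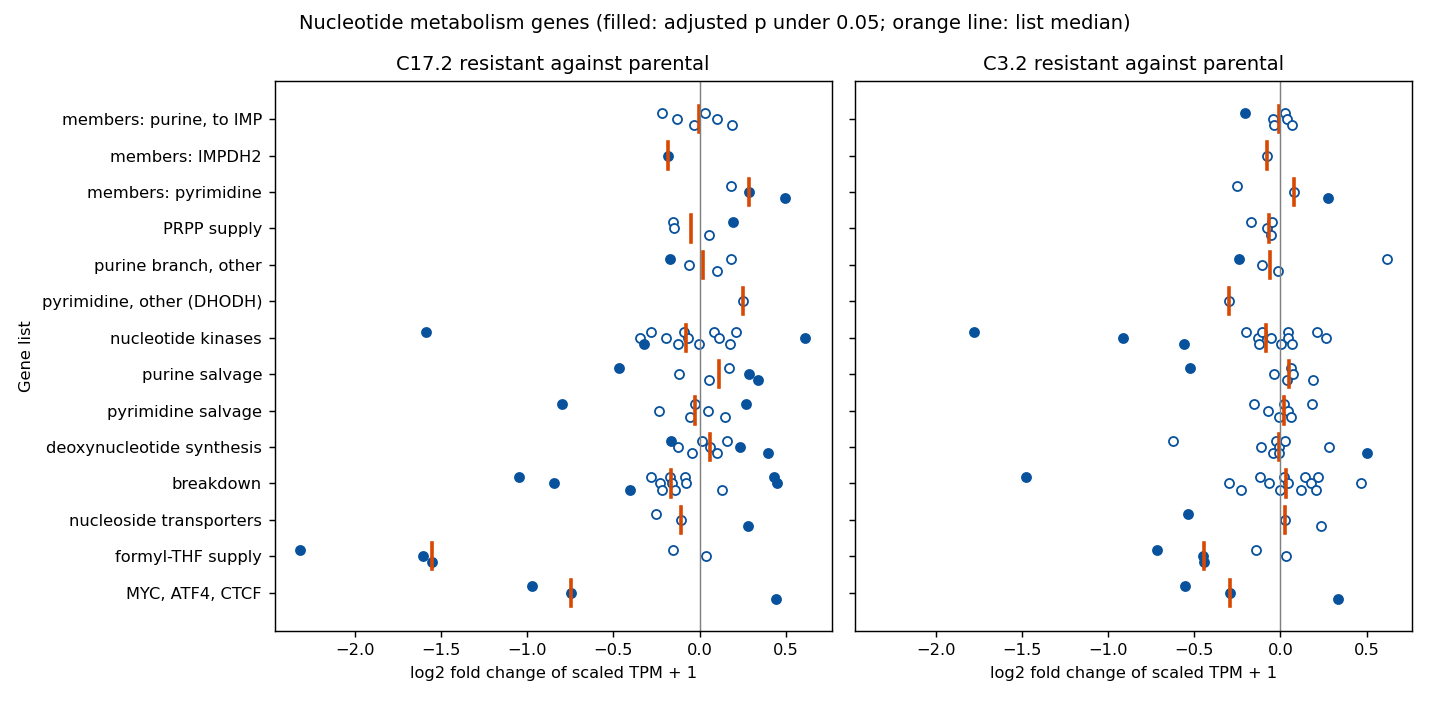
Log2 fold change of scaled TPM + 1 (horizontal axis) of tested genes of nucleotide metabolism by list (vertical axis), in C17.2 (left) and C3.2 (right). A further row holds *MYC*, *ATF4* and *CTCF*, with a median of -0.75 in C17.2 and -0.29 in C3.2. Each point is a gene, filled points have an adjusted p under 0.05, and orange lines are list medians. Most lists center near 0, while 3 of 5 genes of formyl-tetrahydrofolate (formyl-THF) supply reach -1.55 to -2.32 in C17.2 and -0.44 to -0.72 in C3.2.

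Supply of PRPP changed little, with 1 of 4 genes called in C17.2, *PRPS1* (0.19, adjusted p = 0.0464), and 0 in C3.2, where limma also gave 0 at an unadjusted p under 0.05. That is 25% in C17.2 and 0% in C3.2, beside 27.3% and 11.4% of all tested genes. *GMPS*, which follows IMPDH2 on the way to GMP, was lower in both clones, from 46.4 and 46.9 to 40.5 and 42.0 in C17.2 libraries (-0.17, adjusted p = 0.0273) and from 41.1 and 42.2 to 35.8 and 34.5 in C3.2 libraries (-0.24, adjusted p = 0.0208). It was the only 1 of 4 further purine branch genes called in either clone, or 25% in each. Of 14 nucleoside mono- and diphosphate kinases, 1 rose and 2 fell in C17.2 and 3 fell in C3.2. This was 21.4% in each clone, beside 27.3% of all tested genes in C17.2 and 11.4% in C3.2. *AK4*, a mitochondrial adenylate kinase, went from 5.07 to 1.02 in C17.2 (-1.59, adjusted p = 5.55e-05) and from 8.32 to 1.72 in C3.2 (-1.78, adjusted p = 0.000163). *NME4*, a mitochondrial nucleoside diphosphate kinase, fell from 20.8 to 16.4 in C17.2 (-0.32, adjusted p = 0.00432, not called on TPM as deposited, adjusted p = 0.13) and from 21.3 and 22.0 to 11.3 and 10.8 in the C3.2 libraries (-0.91, adjusted p = 0.000407). *NME3* fell in C3.2 (-0.56, adjusted p = 0.0229, not called on TPM as deposited, with no filter on low values or with C3.2 fitted alone) and had a value of -0.34 in C17.2 (adjusted p = 0.0534). *NME1* rose in C17.2, from 54.5 to 83.8 (0.61, adjusted p = 0.000476), and not in C3.2 (-0.10, adjusted p = 0.232), but its close copy and neighbor *NME2* can share its reads, so this value is uncertain.

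Salvage, which recycles free bases and nucleosides, moved in both directions. Of 6 purine salvage genes, *HPRT1* (0.34, adjusted p = 0.00583) and *PNP* (0.29, adjusted p = 0.00946) rose in C17.2. *ADK*, adenosine kinase, fell in both clones, from 38.3 to 27.4 (-0.47, adjusted p = 0.00062) and from 42.4 to 29.2 (-0.53, adjusted p = 0.00149, and 0.0544 with C3.2 fitted alone). Of 7 tested pyrimidine salvage genes, cytosolic thymidine kinase *TK1* rose in C17.2 (0.27, adjusted p = 0.0223) and mitochondrial *TK2* fell there from 8.10 to 4.23 (-0.80, adjusted p = 0.00221), with a value of 0.18 in C3.2 (adjusted p = 0.289). Of 9 genes of deoxynucleotide synthesis, *SAMHD1*, which degrades deoxynucleotides, rose in both clones, from 29.7 to 39.5 (0.40, adjusted p = 0.00634) and from 22.7 to 32.6 (0.51, adjusted p = 0.00795, and 0.0934 with C3.2 fitted alone). The ribonucleotide reductase subunit *RRM2* fell slightly in C17.2 (-0.17, adjusted p = 0.0337) and thymidylate kinase *DTYMK* rose (0.24, adjusted p = 0.0148). Shares called in C17.2 and C3.2 were 50% and 16.7% for purine salvage, 28.6% and 0% for pyrimidine salvage, and 33.3% and 11.1% for deoxynucleotide synthesis. Of all tested genes, 27.3% and 11.4% were called.

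Among 14 tested genes of breakdown and interconversion, 2 rose and 3 fell in C17.2 and 1 fell in C3.2. This was 35.7% and 7.14% of them, beside 27.3% and 11.4% of all tested genes. Adenosine deaminase *ADA* fell in both clones, from 17.9 ± 0.406 to 8.19 ± 1.17 in C17.2 and from 21.6 ± 1.31 to 7.10 ± 0.0632 in C3.2 (SD, n = 2 each; -1.05, adjusted p = 0.00062, and -1.48, adjusted p = 0.000635). *ADA2*, its secreted relative, fell in C17.2 from 7.61 to 3.81 (-0.84, adjusted p = 0.00139) and had a value of 0.12 in C3.2 (adjusted p = 0.439). Of 3 tested nucleoside transporters, *SLC29A1* rose in C17.2 (0.28, adjusted p = 0.0171) and *SLC29A2* fell in C3.2, from 1.48 to 0.71 (-0.53, adjusted p = 0.0267, not called with no filter on low values or with C3.2 fitted alone). The share of transporters called was 33.3% in each clone. Over all 67 tested genes of these lists, 8 fell in both clones (*GMPS*, *AK4*, *NME4*, *ADK*, *ADA*, *MTHFD1L*, *MTHFD2* and *SHMT2*), and 1 rose in both (*SAMHD1*), where 4.16% of all tested genes fell and 2.16% rose in both.

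RNA of the transcription factors *MYC* and *ATF4*, a regulator of amino acid and one-carbon genes, fell alongside. *MYC* was at 126 and 124 in C17.2 parental, 78.4 and 70.0 in C17.2 resistant, 158 and 154 in C3.2 parental, and 128 and 126 in C3.2 resistant libraries. *ATF4* was at 344 and 341 in C17.2 parental, 176 and 172.05 in C17.2 resistant, 239 and 241 in C3.2 parental, and 162 and 165 in C3.2 resistant libraries. Groups of both genes were apart in both clones. The 3 members with an E-box in the window searched, *ATIC*, *PPAT* and *PAICS*, had values of -0.22, 0.10 and 0.03 in C17.2, where *MYC* had a log2 fold change of -0.75 (adjusted p = 0.000433) and *ATF4* one of -0.97 (adjusted p = 3.16e-05). In C3.2 these members had values of 0.04, 0.03 and -0.20, beside -0.29 for *MYC* (adjusted p = 0.0287, called under 2 of 8 processing alternatives) and -0.55 for *ATF4* (adjusted p = 0.000875). The part of *MYC* and *ATF4* in the members' values was not tested.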

How the data were processed

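Total RNA-seq of 8 libraries was analyzed, grouped by the clone label. The authors trimmed reads with Trim Galore 0.6.3, aligned them with STAR 2.7.9a to hg38 and quantified genes with RSEM 1.3.1, per the labels, and deposited TPM per gene and library without scaling between libraries. A few abundant non-coding RNAs can shift the TPM of all other genes, so libraries were scaled to the mean library, trimming 30% of log2 ratios and 5% of means at each end. Log2(scaled TPM + 1) was fitted in 1 model of the 4 groups with limma 3.58.1 (R 4.3.3, lmFit and eBayes with an intensity trend, Benjamini-Hochberg adjustment over 15614 genes, two-sided, threshold 0.05). Fold changes on this scale understate those of low genes. The study used limma-voom, which requires counts, and it was not run here. No covariate was used. Protein-coding genes took 36.0% to 43.3% of TPM. The labels describe single-end reads and the methods paired-end reads. On simulated data of 15614 genes for C17.2, with 200 genes changed, 86% of changes of 1 (log2) were recovered with 5.49% of calls false, and with 200 genes changed by 0.3 none was called. In the data, 4261 genes were called in C17.2, so the adjustment was less strict there than with 200 changed genes. The simulation therefore does not say how often changes near 0.3 were called in the data. Positions came from Gencode release 44 by gene identifier. Members and lists were chosen with earlier results of these data known. Named were all members, *MYC*, *ATF4*, *CTCF*, list genes called with an absolute log2 fold change of at least 0.5, paralogs of members, and the 5 genes nearest in pattern. *GMPS*, *DHODH*, *PRPS1*, *HPRT1*, *PNP*, *TK1*, *RRM2*, *DTYMK*, *SLC29A1*, *SHMT1* and *MTHFD1* were named after their values were seen. Tables and plots used Python 3.11.15, pandas 2.3.3 and matplotlib 3.10.9.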

Additional observations from a re-analysis of the deposited data

Results flagged for a closer look

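The log2 fold change of resistant against parental cells was unequal between the clones by the limma interaction test (Benjamini-Hochberg adjustment over all tested genes) for 1 of the 10 members and for 9 further named genes. Of the further genes, *MYC* and *ATF4* had been named as regulators and the others for large changes. Of all 67 tested genes of the pathway lists, 10.4% were called in this test, beside 9.9% of all tested genes. The value given is the change in C17.2 minus that in C3.2. For *UMPS* it was 0.75 (adjusted p = 0.0248), where every library of C17.2 resistant cells was above, and every library of C3.2 resistant cells below, the parental libraries of the same clone. For *NME1* it was 0.72 (adjusted p = 0.00313), which is uncertain because *NME2* can share its reads. For *NME4* it was 0.59 (adjusted p = 0.00498). It was negative for *TK2* (-0.98, adjusted p = 0.0104) and *ADA2* (-0.97, adjusted p = 0.0088). The one-carbon enzymes *MTHFD1L* (-1.16, adjusted p = 0.00143), *MTHFD2* (-1.60, adjusted p = 0.000192) and *SHMT2* (-1.11, adjusted p = 0.000632) fell in both clones and more in C17.2. For *ATF4*, which also fell in both clones, it was -0.42 (adjusted p = 0.00673, and 0.063 on TPM as deposited). For *MYC* it was -0.46 (adjusted p = 0.0225, and 0.071 on TPM as deposited and 0.0507 with no filter on low values), and its fall in C3.2 was called under 2 of 8 processing alternatives. The cause of these differences was not tested, and the clone cannot be told apart from the separate title number ranges of its samples.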

How the results depend on the processing

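The number of members called in C17.2 (3) was 6 on TPM as deposited and 5 after rescaling to protein-coding genes, and ranged from 1 to 4 with 1 library left out. In C3.2 (2 members) it was 1 on TPM as deposited, under quantile normalization and with no filter on low values, 0 with each clone fitted alone and 0 with no intensity trend, and ranged from 0 to 1 with 1 library left out. For the difference between the clones (1 member) it was 2 with a TPM of at least 1 required in at least 2 libraries, and ranged from 0 to 1 with 1 library left out. Of all tested genes, 4261, 1773 and 1546 were called in C17.2, C3.2 and the difference, and 2374 to 4551, 325 to 1785 and 541 to 1747 with 1 library left out. In C3.2, 1167 were called with no filter and 74 with the clone fitted alone, where fewer libraries set the spread. At an unadjusted p under 0.05 there were 6135, 4307 and 4208.

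The sign turned for members that were not called. In C17.2 this was *GART* on TPM as deposited (0.13), on TPM rescaled over protein-coding genes (0.051) and with 1 library left out (-0.068 to 0.0042), and *ADSL* on TPM as deposited (0.029). In C3.2 it was *GART* on deposited (0.026), protein-coding (0.063) and quantile (0.038) scaling and with 1 library left out (-0.090 to 0.011), *ADSL* likewise (0.020, 0.057, 0.026 and -0.098 to 0.0074), *IMPDH2* on protein-coding (0.027) and quantile (0.086) scaling, and *ATIC* (-0.056 to 0.13) and *PFAS* (-0.029 to 0.16) with 1 library left out. For the difference it was *ADSL* on TPM as deposited (0.0092) and *GART* on protein-coding (-0.012) and quantile (-0.086) scaling and with 1 library left out (-0.043 to 0.058). Of the members' values under other processing, 64 of 80 in C17.2, 63 of 80 in C3.2 and 64 of 70 for the difference kept their sign and side of the threshold. The cause was not tested. Where 0 members were called, limma gave 2 to 4 in C3.2 and 3 to 7 for the difference at an unadjusted p under 0.05. Among named genes, libraries were left out in turn for members only. A library left alone in its group was assumed to vary like the others. No paired analysis was possible because the parental and resistant groups of a clone share no replicate numbers in the labels. Depth is unknown, so counting error could not be set beside these values.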
